A study of Mus musculus with 38 samples.

Results

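The mouse striatum was examined for 64 genes of ion channels and their partner subunits: every gene whose array symbol begins with Kcn, Cacn, Scn and a digit, or Hcn and a digit from 1 to 4, and whose probe was detected in at least 8 arrays at a detection p-value below 0.01. These are 64 of the 9455 features tested, and all 64 channel genes named by the annotation used passed that filter. The annotation names 11458 of the 25697 probes on the array, so channel genes behind the other probes are not described. Although most members form or bind channels opened by voltage, the name prefixes also take in inward rectifiers, two-pore potassium channels, potassium channels opened by calcium or sodium, and transmembrane AMPA receptor regulatory proteins (TARPs), which are relatives of a calcium channel gamma subunit. The set is therefore called ion channel genes here.

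Total RNA from the striatum of MF1 mice aged 152 days was hybridised to Illumina bead arrays, 1 set of values per animal. Each animal is a biological replicate by its label. The groups held 11 XY male, 9 XXY male, 8 XX male and 9 XX female animals. The sample codes of the 3 male groups all carry the letters Sry (XYSry, XXYSry and XXSry), the testis-determining gene, while those of the females do not. XXY is the karyotype of Klinefelter syndrome. A 12th XY male is labelled, and its signal was not analysed here. Each sample code also ends in a letter, a or b or both, whose meaning the labels do not give: all XX males had letter a, all XX females letter b, and the XY and XXY males were mixed. The share of letter b was carried in the main fit, together with the labelled batch (2 batches). It is called the run term here, a name that the labels do not give. Fits without it, and fits of letter a or letter b animals alone, are named as such.

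Voltage-gated channels open or close as the membrane potential changes. Sodium channels start the action potential, calcium channels couple it to transmitter release and to bursts, and potassium channels end it and set the interval to the next. The principal cells of the striatum, the GABA-releasing projection neurons, rest at a very negative potential that inward rectifier potassium channels hold. A-type potassium currents, carried by Kcnd2-type pores with Kv-interacting proteins, delay their firing.

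Arrays had 10089 to 12392 detected probes. Letter a arrays were dimmer: their raw signal at percentile 90 lay between 632 and 938 in 14 animals, against 1266 to 2209 in the 14 with letter b. Xist, the RNA of the inactive X chromosome, was detected in 0 of 12 XY males and in every animal of the other groups. Between 41 and 63 of the 64 channel genes were detected in an animal. All 10 measured projection neuron markers (Drd1, Drd2, Ppp1r1b, Pdyn, Tac1, Rgs9, Gpr6, Foxp1, Bcl11b and Pde10a) passed the detection filter. So did the markers counted below for tissue next to the striatum, 7 of thalamus and septum (such as Tcf7l2, Prkcd and Slc17a6) and 5 of choroid plexus (such as Ttr and Otx2). XX female 7 and XXY male 5 lay more than 3 median absolute deviations from the median on the first component of the within-group variation, and counts and values without them are given beside the results.

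The members fell into 18 families. Calcium channels gave 2 pore genes (Cacna1g and Cacna1h, both of T-type channels), 2 alpha2delta genes, 3 beta genes and 6 gamma or TARP genes. Sodium channels gave 2 alpha genes (Scn1a and Scn8a) and 3 beta genes (Scn2b, Scn3b and Scn4b). Hcn2 and Hcn3 encode channels of the hyperpolarization-activated current. Among potassium channels there were 7 inward rectifiers, 6 two-pore genes, 5 genes of the Kv1 family (Kcna) and 5 silent subunit genes. Another 5 were Kcnma1, Kcnmb4, Kcnn1, Kcnt1 and Kcnu1, grouped by symbol, most of them of channels opened by calcium or sodium. There were also 4 Kv-interacting proteins, 3 Kv beta genes, 3 EAG, ERG or ELK genes (Kcnh), 3 genes of Kcnc and Kcnd type, 2 Kcne genes and Kcnq3. Of the 64 genes, 34 were detected in all 37 animals, while 6 were detected in fewer than 50% of them. Only Kcne1l lies on the X chromosome, and the other 63 are autosomal.

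The comparison of XXY with XY males asks what a second X chromosome does beside a Y chromosome. No channel gene passed the test: 0 of 64 had an adjusted p under 0.05 (limma, Benjamini-Hochberg over all 9455 features), beside 0.0635% of all features, and 0 of 64 had an unadjusted p under 0.05, beside 1.30% of all features. Members with higher and lower differences were even, at 32 and 32, and the median log2 difference was 0.0011 against -0.0011 over all features. Without the animals that stand apart 39 were higher and the median was 0.07. In labelled batch 1 alone 44 were higher (median 0.12) and in batch 2 alone 23 (median -0.05). The 95% interval of the difference, from the SE and 31 residual degrees of freedom, stayed within a log2 of 1 on either side of 0 for 60 of the 64 genes and within 0.5 for 34. The 4 wider intervals allow a change of 2-fold or more.

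The X-linked member gave no call. Kcne1l, whose product is a small membrane protein that modulates potassium channels, had a log2 signal of 7.68, 8.34 and 9.08 (lowest, median, highest) in XY males and of 7.46, 8.49 and 8.87 in XXY males. In XX males its values were 7.89, 8.61 and 8.95, and in XX females 7.70, 8.54 and 8.99. All 4 groups overlapped. The XXY minus XY difference was 0.09 (SE 0.18, limma adjusted p = 1.00), with an interval from -0.28 to 0.45.

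By family, the 3 sodium channel beta genes had XXY minus XY differences between 0.02 and 0.10, and the 2 alpha genes between 0.01 and 0.06. The 3 calcium channel beta genes lay between -0.04 and -0.01. Scn4b encodes the beta subunit linked to resurgent sodium current and is a classic striatum-enriched transcript. It had a log2 signal of 12.30, 13.08 and 13.98 in XY males and of 11.80, 13.27 and 14.02 in XXY males (difference 0.10, SE 0.27, limma adjusted p = 1.00). In XX males Scn4b lay at 12.57, 13.44 and 13.95, and in XX females at 11.81, 12.96 and 13.87. Again the groups overlapped over most of their range.

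The members with the smallest p-values in this comparison, given for their size only, all had an unadjusted p above 0.05. Kcnk2, which encodes the mechanically gated two-pore channel TREK, was higher by 0.34 (SE 0.19) in the fit and lay above the XY mean in 7 of 9 XXY males. Its second probe gave 0.18 (SE 0.22). Cacng3, a TARP gene, had a difference of 0.41 (SE 0.31), with 0.32 (SE 0.28) at its second probe, and the inward rectifier gene Kcnj4 one of 0.24 (SE 0.20). On the lower side stood Kcnk4 at -0.52 (SE 0.27), Kcne2 at -1.34 (SE 0.76) and Kcnj3, a subunit of G protein-gated inward rectifiers, at -0.21 (SE 0.13). The limma adjusted p was 1.00 for each of these 6 genes. Beside them 10 of 10 projection neuron markers were higher in XXY males (median 0.15). So were 1 of 7 of thalamus and septum (median -0.49) and 0 of 5 of choroid plexus (median -0.84). None of these markers was called, and their part in the channel genes' values was not tested.

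**Figure D1:**
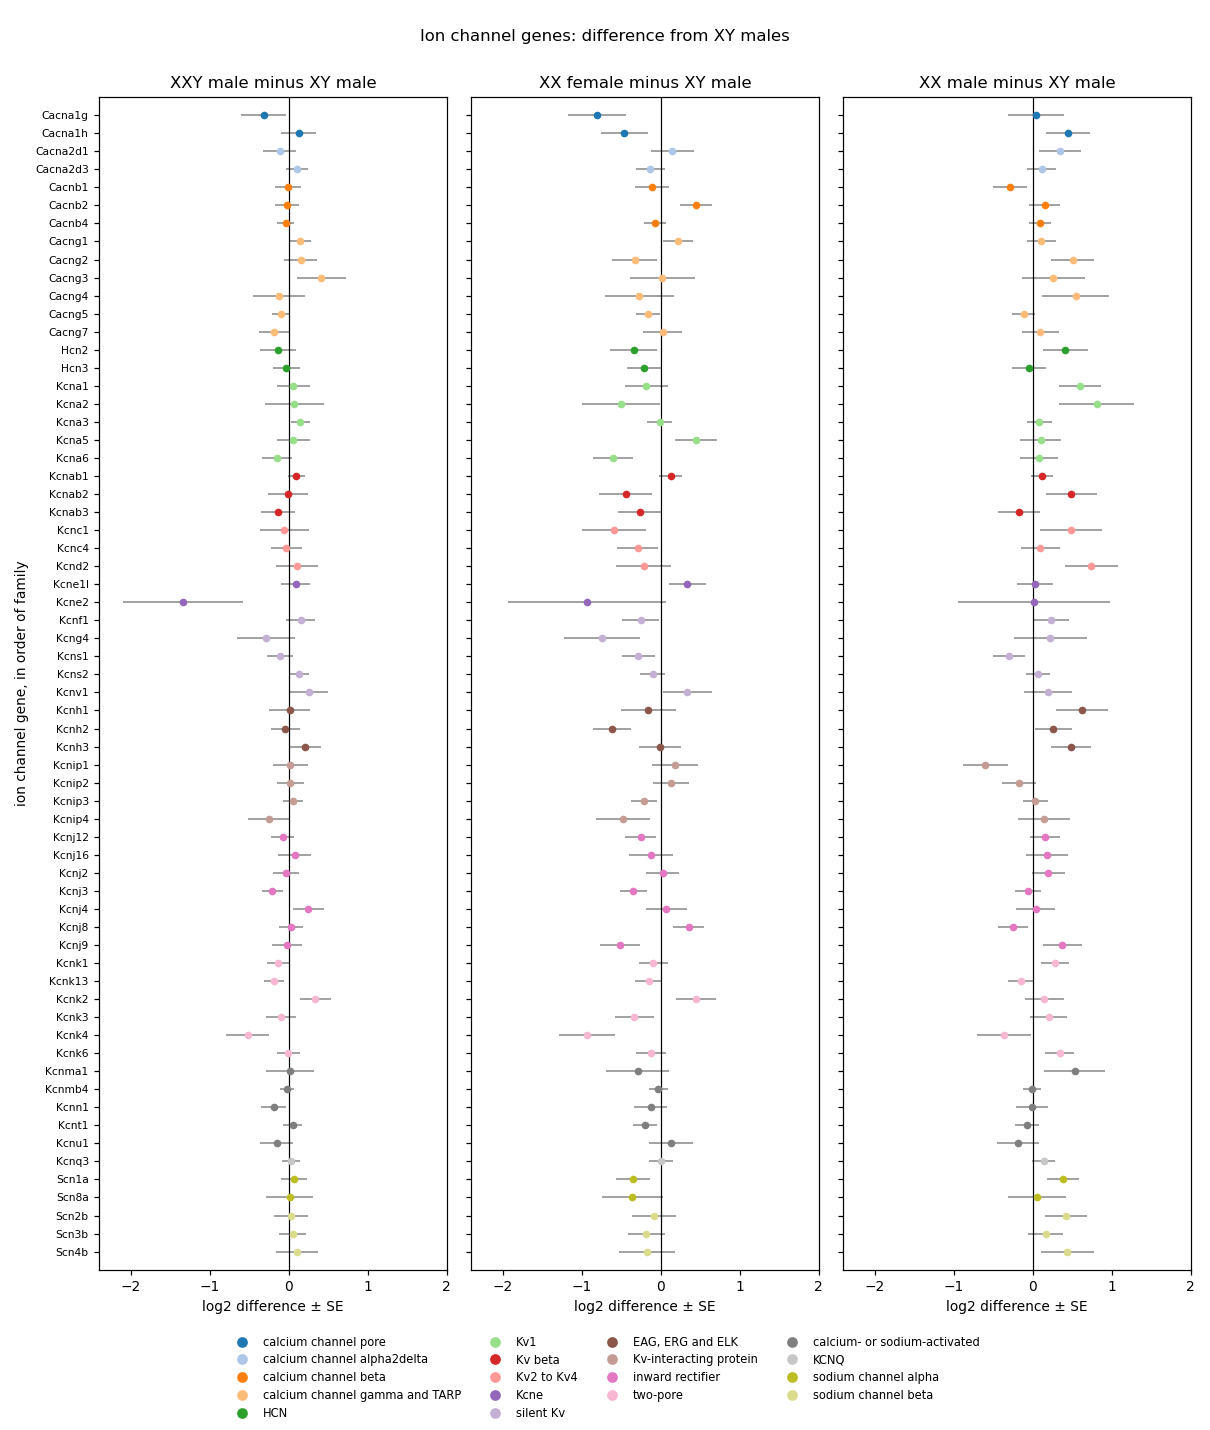
Log2 difference from XY males (x axis, point with SE bar) for each of the 64 ion channel genes (y axis, in order of family, coloured by family) in XXY males, XX females and XX males. Points lie evenly about 0 for XXY males, 47 of 64 lie below 0 for XX females and 49 of 64 lie above 0 for XX males; none passed an adjusted p of 0.05.

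XX females were compared with XY males, which differ in both sex chromosomes and gonads. Again 0 of 64 channel genes passed (limma, smallest adjusted p = 0.890), beside 0.0529% of all features. At an unadjusted p under 0.05 there were 6 members (9.38%), 1 higher and 5 lower, beside 5.27% of all features. Lower differences prevailed, with 47 of 64 genes below 0 and a median of -0.17, while 48.4% of all features were higher and their median was -0.01. Within labelled batch 1 alone the direction was the opposite, with 44 of 64 genes higher and a median of 0.22. There 0 of 64 had an unadjusted p under 0.05, beside 1.39% of all features. No male of batch 1 had letter b alone, so this value depends on a run term extended beyond the letters of those males. Within labelled batch 2 alone 17 of 64 were higher with a median of -0.33. There 21 of 64 members had an unadjusted p under 0.05, a larger share than the 21.2% of all features. Among letter b animals alone, the letter all XX females and 4 XY males have, 17 of 64 were higher with a median of -0.35. There 15 of 64 had an unadjusted p under 0.05, a larger share than the 15.5% of all features. Neither excess was tested. Without the animals that stand apart 19 of 64 were higher, the median was -0.08 and 6 had an unadjusted p under 0.05, beside 4.54%.

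Kcnk4 encodes the two-pore channel TRAAK, which is opened by membrane stretch and lipids. Its log2 signal was 4.81, 6.19 and 6.75 in XY males and 4.79, 5.36 and 7.10 in XX females. In XXY males the values were 4.86, 5.13 and 7.03, and in XX males 4.64, 5.12 and 6.09. The ranges overlapped, and the probe was detected in 14 of 37 animals, so many of these values lie at background. The XX female minus XY difference was -0.94 (SE 0.35, limma adjusted p = 0.890), and 8 of 9 XX females lay below the XY mean. It was -0.45 (SE 0.86) in batch 1, where no male had letter b alone, and -1.17 (SE 0.38) in batch 2. With the animals that stand apart left out it was -0.998 (SE 0.38).

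Beside this stand the markers of thalamus and septum: 0 of 7 were higher in XX females, their median difference was -1.02, and none was called. Of the choroid plexus markers 0 of 5 were higher (median -0.98), and of the projection neuron markers 5 of 10 (median -0.01). The summed linear signal of the thalamus and septum markers ranged from 4440 to 17946 in XY males and from 2749 to 18817 in XX females. The part of any of these marker lists in the Kcnk4 difference, or in the shift of the channel genes, was not tested. In bulk tissue fewer cells of a type and less RNA per cell cannot be told apart.

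Kcnh2 encodes the pore of ERG channels, known for the repolarizing current of the heart and also carried by neurons. Its log2 signal was 7.35, 8.22 and 8.56 in XY males and 6.97, 7.70 and 8.53 in XX females. XXY males had 7.27, 8.11 and 8.67, and XX males 7.28, 8.29 and 8.47. Most XX females lay low, 8 of 9 below the XY mean, and the ranges overlapped over most of their length. The difference from XY males was -0.62 (SE 0.24, limma adjusted p = 0.890), and a second probe of Kcnh2 gave -0.72 (SE 0.21, adjusted p = 0.714). Against XXY males the 2 probes gave XXY minus XX female differences of 0.58 (SE 0.25) and 0.61 (SE 0.22), and the 2 comparisons share the XX females. In batch 2 alone the XX female minus XY difference of Kcnh2 was -0.97 (SE 0.19, limma adjusted p = 0.0508). In batch 1 alone, where no male had letter b alone, it was 0.28 (SE 0.62, limma adjusted p = 0.957). It was -0.54 (SE 0.23) with the animals that stand apart left out. The part of the marker lists above in the Kcnh2 values was not tested.

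Of the other 4 genes, Kcna6 (a Kv1 pore) had an XX female minus XY difference of -0.61 (SE 0.25), Cacna1g -0.81 (SE 0.37) and Kcnj9 (a G protein-gated inward rectifier) -0.51 (SE 0.25). With the animals that stand apart left out these were -0.52 (SE 0.24), -0.88 (SE 0.39) and -0.41 (SE 0.25). Cacnb2, a calcium channel beta subunit, had 0.44 (SE 0.20), while its second probe gave 0.01 (SE 0.33). The median log2 signal of Cacnb2 was 7.38 in XX females and 7.49 in XY males, and without the run term its difference was -0.06 (SE 0.18). That of Kcna6 was -0.08 (SE 0.22) without the run term. Among letter b animals alone, where no run term enters, Cacnb2 had 0.43 (SE 0.24) and Kcna6 -0.77 (SE 0.29). In the fit without the run term Kcnj3 became the only member called, at -0.54 (limma adjusted p = 0.0334), where 2.19% of all features were called.

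XX males were compared with XY males, both groups with Sry in their codes. Here 0 of 64 members passed (limma, smallest adjusted p = 0.636), beside 0.0529% of all features. There were 3 (4.69%) at an unadjusted p under 0.05, beside 6.50% of all features. Without the animals that stand apart, neither of which is in these groups, there were 10 of 64, beside 13.3% of all features. In that fit 50 of 64 were higher, with a median of 0.13. Differences leaned upward, with 49 of 64 genes higher and a median of 0.14, against 50.8% and 0.01 over all features. Among letter a animals alone, the letter all XX males have, 46 of 64 were higher with a median of 0.16. Within batches 1 and 2 alone 48 and 38 were higher, with medians of 0.11 and 0.13. In batch 2 no XY or XXY male had letter a alone, so its value depends on a run term extended beyond those males' letters.

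Kcnd2, the A-type pore gene, had a log2 signal of 7.56, 8.82 and 9.64 in XY males and of 8.59, 9.20 and 9.81 in XX males. XXY males had 7.68, 9.01 and 9.54, and XX females 7.61, 8.77 and 10.00. XX males lacked the low values found in every other group, and the ranges overlapped. The XX male minus XY difference was 0.74 (SE 0.33, limma adjusted p = 0.636), and 6 of 8 XX males lay above the XY mean. It was 0.79 (SE 0.40) in batch 1 and 0.91 (SE 0.73) in batch 2, where no XY or XXY male had letter a alone. It was 0.74 (SE 0.29) without the animals that stand apart. All 10 projection neuron markers also had positive differences in XX males, with a median of 0.26 and none called, as did 5 of 5 choroid plexus markers (median 0.28) and 6 of 7 of thalamus and septum (median 0.15). The summed signal of the projection neuron markers was 33337 to 68264 in XY males and 39740 to 68088 in XX males. The part of any of these marker lists in the Kcnd2 value was not tested.

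Kcna1, a Kv1 pore gene of axons, had an XX male minus XY difference of 0.60 (SE 0.26), with 4 of 8 XX males above the XY mean. Kcnip1, a Kv-interacting protein gene expressed in some interneurons, had -0.60 (SE 0.28), with 6 of 8 below it. With array weights in the fit, which lower the influence of noisy arrays, 16 members were called (14 higher and 2 lower), but so were 26.2% of all features.

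XXY males set against the XX groups gave no call. Against XX females 0 of 64 passed (limma, smallest adjusted p = 0.924), beside 0.0423% of all features. An unadjusted p under 0.05 was found for 2 (3.12%), beside 4.09% of all features. In all 46 of 64 were higher in XXY males and the median was 0.18. Higher too were 7 of 7 thalamus and septum markers (median 0.55), 4 of 5 of choroid plexus (median 0.18) and 7 of 10 of projection neurons (median 0.15). Against XX males 0 of 64 passed (smallest adjusted p = 0.689), beside 0.0212%, and 3 (4.69%) had an unadjusted p under 0.05, beside 6.24%. There 19 of 64 were higher and the median was -0.15, beside 1 of 7 thalamus and septum markers (median -0.65), 0 of 5 of choroid plexus (median -1.13) and 3 of 10 of projection neurons (median -0.13). None of these markers was called, and their part in the channel genes' shifts was not tested. Without the animals that stand apart 49 of 64 members were higher against XX females (median 0.14, 3 at an unadjusted p under 0.05, beside 5.40%) and 19 against XX males (median -0.14, 2 at an unadjusted p under 0.05, beside 5.03%). Within batches 1 and 2 alone the medians were -0.09 and 0.26 against XX females and -0.07 and -0.19 against XX males. The direction against XX females thus differed between batches. In batch 1 no XXY or XY male had letter b alone, and in batch 2 none had letter a alone. The batch 1 value against XX females and the batch 2 value against XX males depend on a run term extended beyond those letters.

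Those 3 were Kcnk1, Kcnip1 and Kcna1. Kcnk1, the gene of the two-pore channel TWIK, had a log2 signal of 10.26, 11.15 and 11.58 in XXY males and of 11.04, 11.50 and 11.98 in XX males. In XY males it was 10.92, 11.21 and 11.68, and in XX females 10.56, 11.12 and 11.48. In XXY males 8 of 9 values lay below the XX male mean, and the ranges overlapped. The lowest XXY value of Kcnk1 was that of XXY male 5. The difference was -0.41 (SE 0.18, limma adjusted p = 0.689), and -0.33 (SE 0.15, adjusted p = 0.874) without the animals that stand apart. Kcnip1 had 0.62 (SE 0.29) and Kcna1 -0.54 (SE 0.26) in the same comparison, and 0.54 (SE 0.28) and -0.50 (SE 0.26) without those animals. In batch 1 alone Kcnk1 had -0.13 (SE 0.24), Kcnip1 0.47 (SE 0.38) and Kcna1 -0.14 (SE 0.36). In letter a animals alone they had -0.11 (SE 0.26), 0.48 (SE 0.43) and -0.05 (SE 0.50). In batch 2 alone, where no XXY male had letter a alone, they had -0.87 (SE 0.30), 0.62 (SE 0.52) and -1.03 (SE 0.46).

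XX males and XX females share no letter, so their difference rests on the run term estimated in the XY and XXY males. Called were 0 of 64 members (limma, smallest adjusted p = 0.561), beside 0.0106% of all features. An unadjusted p under 0.05 was found for 6, or 9.38% (5 higher, 1 lower), beside 7.62% of all features. Higher in XX males were 50 of 64, with a median of 0.29. The median was -0.06 in batch 1 alone and 0.38 in batch 2 alone. Beside it stand 6 of 7 thalamus and septum markers that were higher (median 1.23), 5 of 5 of choroid plexus (median 1.21) and 7 of 10 of projection neurons (median 0.35). None of them was called, and their part in the shift was not tested. Without the animals that stand apart 50 of 64 members were higher (median 0.28), and 6 had an unadjusted p under 0.05, beside 7.23%. Precision was lowest here: the 95% interval stayed within a log2 of 1 for 25 of the 64 genes.

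Scn1a, the sodium channel alpha gene of fast-spiking interneurons, shows how far the run term carries this comparison. Its log2 signal was 8.05, 8.79 and 9.16 in XX males and 8.89, 9.21 and 10.03 in XX females. All 8 XX males lay below the XX female mean, yet the fitted XX male minus XX female difference was 0.74 (SE 0.31, limma adjusted p = 0.561), and without the run term it was -0.57 (SE 0.23). It was 0.70 (SE 0.32) without the animals that stand apart. With the run term dropped 9 members were called, where 26.9% of all features were.

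The 6 comparisons share groups, so their counts are not independent of each other. In none of them were the values of any member free of overlap between the 2 groups. Of all features 0.0212% were free of overlap in XXY minus XY males, 0.106% in XX females minus XY males, 0.0740% in XX minus XY males, 0.137% in XXY males minus XX females, 0.180% in XXY minus XX males and 4.73% in XX males minus XX females.

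**Figure D2:**
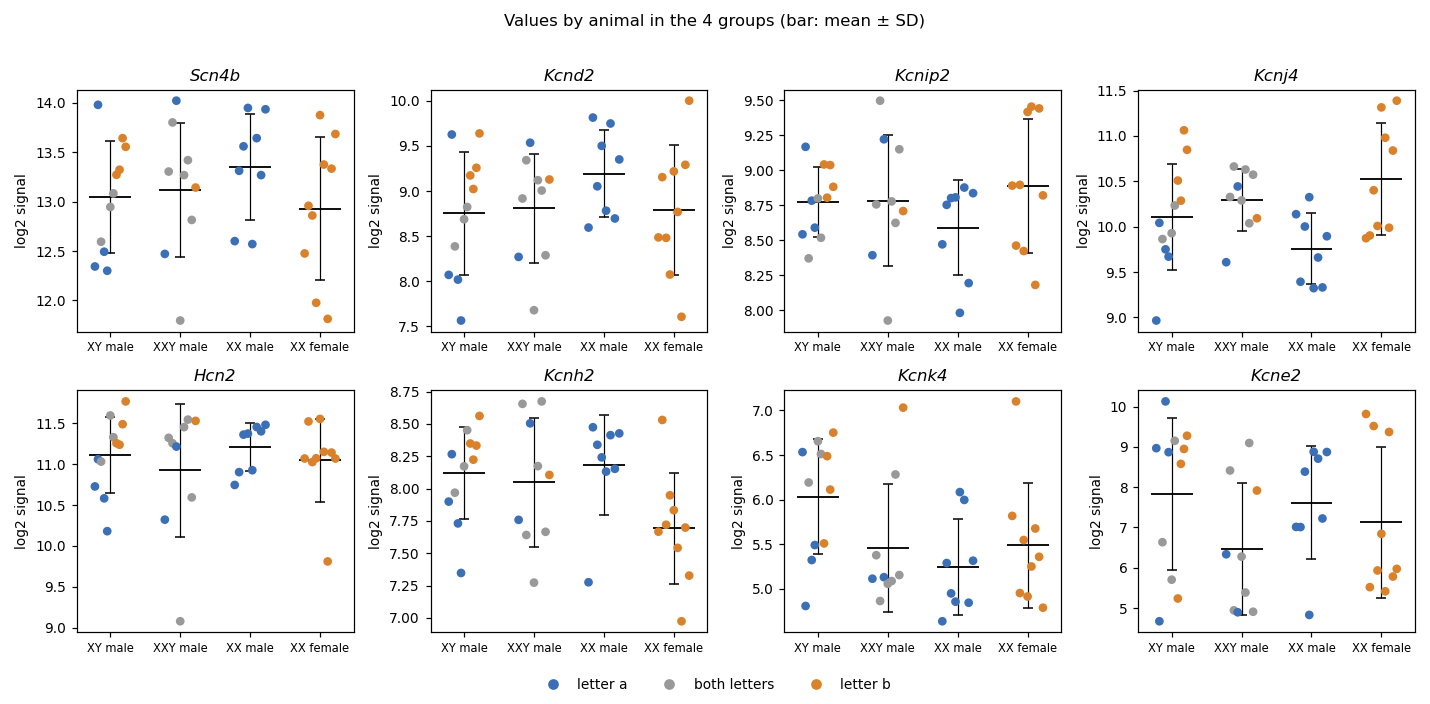
Log2 signal (y axis) of 8 ion channel genes in every animal of the 4 groups (x axis), with points coloured by the letter of the sample code and bars at mean ± SD. The groups overlap for all 8 genes, Kcnh2 is low in most XX females, and Kcne2 spans 4.67 to 10.13.

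The run term itself was tested as a comparison of letter b with letter a. Of the 64 members 5 passed, 4 higher and 1 lower in letter b, or 7.81%, beside 13.2% of all features (7.00% higher and 6.16% lower). Another 6 had an unadjusted p under 0.05, which made 11 in all (17.2%), beside 28.8% of all features. The share of members called was thus below that of all features. The members' median was 0.28 and 45 of 64 were higher, against 0.01 and 51.2% over all features. Higher with letter b were also 6 of 7 thalamus and septum markers (median 1.06), 5 of 5 of choroid plexus (median 0.25) and 7 of 10 of projection neurons (median 0.20), with none called, and their part in the members' values was not tested.

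Scn1a had the smallest p-value of them. It lay at 7.97, 8.40 and 9.16 in the 14 letter a animals, at 8.13, 9.17 and 9.56 in the 9 with both letters, and at 8.89, 9.33 and 10.03 in the 14 with letter b. Animals of letters a and b overlapped little, and those with both letters lay between. The difference was 1.34 (SE 0.26, limma adjusted p = 0.000916).

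Kcns2, a silent Kv subunit gene, had 6.71, 7.09 and 7.69 with letter a and 7.09, 7.65 and 8.05 with letter b (difference 0.69, SE 0.19, limma adjusted p = 0.0154). Kcna6 had 4.74, 5.56 and 5.86 with letter a and 4.98, 5.94 and 6.74 with letter b, and was detected in 3 of 14 and 12 of 14 of them (difference 1.00, SE 0.31, limma adjusted p = 0.0278). Both ranges overlapped. Cacng2 encodes stargazin, the TARP that carries AMPA receptors to synapses. It lay at 5.18, 6.22 and 6.93 with letter a and at 5.25, 6.86 and 7.76 with letter b (difference 1.00, SE 0.34, limma adjusted p = 0.0487).

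Cacnb2 was the member that fell, from 7.39, 7.97 and 8.62 with letter a to 6.71, 7.34 and 8.09 with letter b (difference -0.95, SE 0.25, limma adjusted p = 0.0101). Its 2 detected probes disagreed, since the dimmer one gave 0.48 (SE 0.40). In each labelled batch fitted alone no member was called, beside 0.159% of all features in batch 1 and 0 in batch 2. Leaving out 1 animal gave between 3 and 8 calls. There were 8 without XXY male 5, beside 21.7% of all features. There were 3 without XXY male 9, XY male 1, XY male 6 or XY male 12, beside 11.9%, 11.5%, 9.3% and 9.44%. Without both animals that stand apart there were 7, beside 19.3%.

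**Figure D3:**
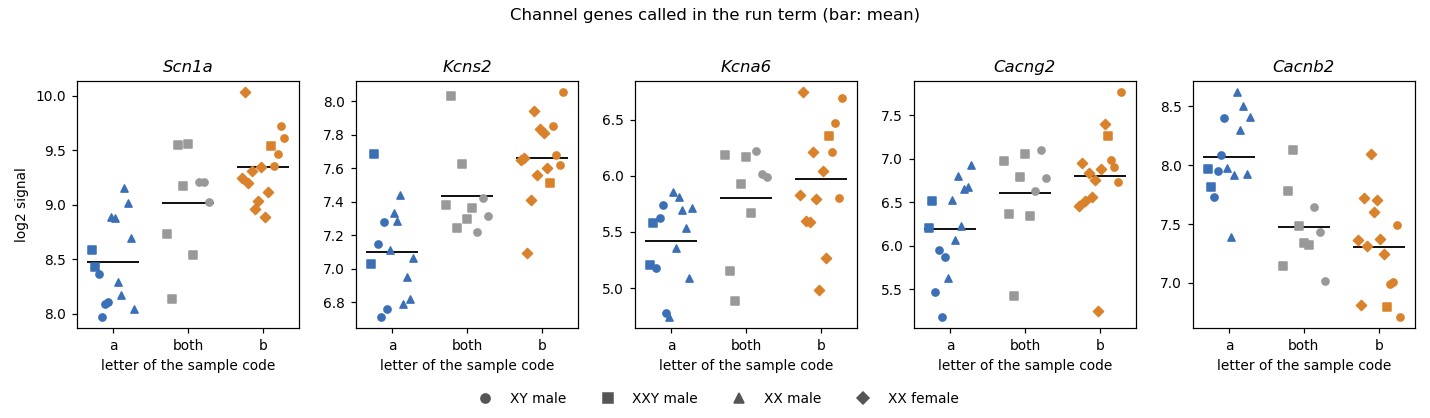
Log2 signal (y axis) of the 5 ion channel genes called in the run term, in animals with letter a, both letters and letter b (x axis), with the marker shape showing the group and the bar the mean. Scn1a, Kcns2, Kcna6 and Cacng2 are higher with letter b and Cacnb2 is lower, and the animals with both letters have means in between.

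Between animals of 1 group the channel genes varied more than most features. The median residual SD of the members, after group, run term and batch were taken out, was 0.44 on the log2 scale against 0.32 over all features, and 51 of 64 members lay above the latter. Kcne2 had the largest, at 1.78, the 99.9th percentile of all features. Kcna2 followed at 0.88, Kcng4 at 0.85 and the TARP gene Cacng4 at 0.77. The steadiest were Kcnmb4, a beta subunit of the large-conductance calcium-activated channel, at 0.19, and Cacnb4 at 0.23.

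The first component of this variation held 45.3% of it over all features. Members followed it about as often as other features, 39.1% against 39.6% with an absolute correlation above 0.7. Of the members 23 rose with it, among them Kcnc1 (r = 0.95), a pore of fast delayed rectifiers, Scn4b and Kcnd2 (both 0.92), and 2 ran against it, Kcnu1 (-0.80) and Kcnip1 (-0.71). XXY male 5 had the lowest value of all 37 animals in 15 of the 64 members and XX female 7 in 10. XXY male 5 also had the fewest detected probes, 10089.

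Deviations of single animals from their group were then set against the mean deviation of 2 marker lists over the same 37 animals, which makes 128 relations. These p-values come from 100000 permutations and were adjusted over all features within each list. Points share arrays, normalization and dissection, and the lists were chosen with these data known. With the projection neuron markers 32 of 64 members correlated positively at an adjusted p under 0.05, or 50%, beside 34.5% of the features other than these markers. Negative correlations were found for 12 members, or 18.8%, beside 32.1%. Above r = 0.8 stood 11 members, where 4.24% of those features did.

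Highest was Scn4b with r = 0.92 (Spearman's rho 0.87, both permutation p = 1e-05, the smallest these permutations can give, adjusted p = 4e-05). It was 0.91 without the 2 animals farthest from the median of the list, 0.90 without the animals that stand apart, 0.96 in batch 1 and 0.89 in batch 2. The other sodium channel beta genes followed, Scn2b with 0.90 and Scn3b with 0.86, as did Kcnh3 (an ELK channel) and Cacng3 with 0.88 and 0.86. Kcnd2 and its partner gene Kcnip2 had 0.85 and 0.82, the T-type pore gene Cacna1h 0.82 and the inward rectifier gene Kcnj4 0.81. Kcnip1 went the other way, with r = -0.78 (rho -0.69, adjusted p = 4e-05), -0.84 in batch 1 and -0.68 in batch 2.

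With the thalamus and septum markers 13 members correlated positively, or 20.3%, beside 7.19% of the features other than these markers, and 12 negatively, or 18.8%, beside 6.15%. Kcnk4 (r = 0.87, rho 0.88) and Kcng4 (r = 0.87, rho 0.85), a silent subunit gene, stood highest (each permutation p = 1e-05, adjusted p = 0.00034). Without the 2 farthest animals both had 0.84, and without the animals that stand apart they had 0.87 and 0.88. In batch 1 they had 0.88 and 0.91, and in batch 2 0.85 and 0.80. Kcng4 was detected in 20 of 37 animals. The Kv-interacting protein gene Kcnip4 had 0.71. Other genes with an unadjusted limma p under 0.05 in XX females minus XY males also correlated with this list. Kcnj9 had 0.67, Cacna1g 0.58, Kcnh2 0.52 and Kcna6 0.46, while Cacnb2 had -0.46 (permutation adjusted p from 0.00057 to 0.0377). Without the 2 farthest animals these were 0.575, 0.543, 0.456, 0.355 and -0.381. The part of these markers in those differences was not tested. Kcnj4 and Kcnk2 ran against these markers, at -0.73 and -0.69, while both rose with the projection neuron list, Kcnk2 at 0.55.

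Kcne2, which is abundant in the choroid plexus, fell into high and low animals, so no pooled correlation is given. In XY males its log2 signal was 4.67, 8.87 and 10.13 and in XXY males 4.89, 6.28 and 9.10. In XX males it was 4.83, 7.80 and 8.88, and in XX females 5.42, 5.97 and 9.82. High and low animals occurred in each group. The lowest XY male for Kcne2 had Ttr, the transthyretin gene of the choroid plexus, at 11.9 and Otx2 at 5.43, and the highest had 14.7 and 8.21. In XX females the lowest and highest had Ttr at 12.1 and 14.5, in XXY males 12.0 and 14.6, and in XX males 12.4 and 14.3.

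The largest fitted difference between XXY and XY males, that of Kcne2 at -1.34, stood beside choroid plexus markers of which 0 of 5 were higher, with a median of -0.84 and none called. Their summed signal ranged from 4515 to 31990 in XY males and from 4441 to 28650 in XXY males. Their part in the Kcne2 value was not tested.

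**Figure D4:**
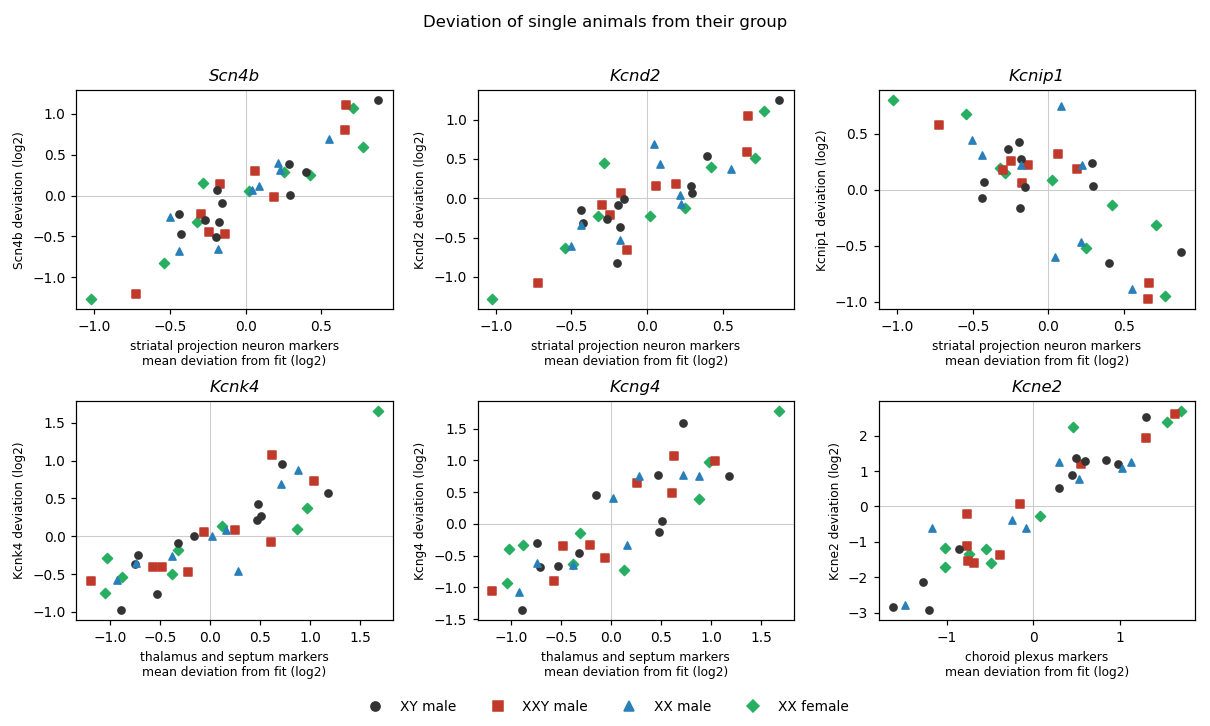
Deviation of each of the 37 animals from its fitted group value (log2, y axis) for 6 ion channel genes, against the mean deviation of a marker list (log2, x axis), with colour and shape showing the group. Scn4b and Kcnd2 rise with projection neuron markers and Kcnip1 falls (r = 0.92, 0.85 and -0.78), Kcnk4 and Kcng4 rise with thalamus and septum markers (both 0.87), and Kcne2 splits into high and low animals.

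The upstream sequences of 4 genes that moved with a marker list are shown so that both pairs can be compared. Each is the 250 bases before the start of the RefSeq gene on assembly GRCm38.p6, 5′ to 3′ on the gene's strand, with matches to any of 4 motifs, on either strand, in capitals. The motifs were the GC box core GGGCGG, then the TATA box as TATAAA, then the cAMP response element as TGACGTCA, and the E-box as CACGTG. Scn4b (chr9:45138374-45138623, plus strand) and Kcnd2 (chr6:21215096-21215345, plus strand) rose with the projection neuron list. Kcng4 (chr8:119635681-119635930, minus strand) and Kcnk4 (chr19:6934516-6934765, minus strand) rose with the thalamus and septum list.
Scn4b: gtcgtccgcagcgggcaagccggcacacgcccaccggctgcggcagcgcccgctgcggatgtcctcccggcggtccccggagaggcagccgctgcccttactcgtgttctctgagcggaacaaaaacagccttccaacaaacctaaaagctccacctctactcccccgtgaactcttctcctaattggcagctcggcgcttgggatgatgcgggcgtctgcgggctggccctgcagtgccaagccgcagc
Kcnd2: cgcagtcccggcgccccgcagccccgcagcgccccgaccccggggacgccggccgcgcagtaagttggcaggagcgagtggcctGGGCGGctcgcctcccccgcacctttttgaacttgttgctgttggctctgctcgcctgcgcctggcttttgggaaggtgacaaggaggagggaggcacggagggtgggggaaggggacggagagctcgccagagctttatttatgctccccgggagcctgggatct
Kcng4: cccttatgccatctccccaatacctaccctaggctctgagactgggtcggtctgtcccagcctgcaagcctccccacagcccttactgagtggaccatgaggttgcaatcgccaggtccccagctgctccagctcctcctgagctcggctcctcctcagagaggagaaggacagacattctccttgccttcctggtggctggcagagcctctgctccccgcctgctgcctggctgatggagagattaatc
Kcnk4: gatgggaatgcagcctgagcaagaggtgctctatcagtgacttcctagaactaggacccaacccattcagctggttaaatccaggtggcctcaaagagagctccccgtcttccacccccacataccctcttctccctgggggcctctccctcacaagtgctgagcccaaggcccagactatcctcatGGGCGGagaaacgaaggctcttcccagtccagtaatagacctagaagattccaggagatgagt

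Within these windows Kcnd2 and Kcnk4 hold 1 GGGCGG each, the core of the box that Sp-type factors bind, and no other motif searched was found in the 4. Upstream windows were matched and searched for 48 of the 64 members, 71 windows in all, as some genes have several starts. Of these, 30 (42.3%) hold GGGCGG on either strand, beside 32.7% of all 32851 windows searched. Windows of 1 whole chromosome were left out of both counts. TATAAA was in 2 (2.82%), beside 12.4%, CACGTG in 3 (4.23%), beside 6.02%, and TGACGTCA in 0, beside 1.55%. A match is only a string of letters, and windows of 1 gene may overlap.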

How the data were processed

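Per the file headers, the deposited scanner table gives each probe's linear intensity on each array, not normalized between arrays, and a detection p-value. A second deposited table holds log2 values, and how the authors scaled and centred them is not given in the labels. The submitters' processing notes name limma. The other columns (bead standard errors and bead numbers) are described in the deposited headers and the errors were not used. In the log2 table the XX male columns ranked unlike their own arrays (Spearman correlations 0.0624 to 0.0729, beside 0.987 or more in the other groups), so it served only as an alternative without XX males. The codes of 9 columns carry both letters, each letter with its own number. In these columns some bead numbers lay midway between whole numbers, as a mean over more than 1 array would give. The labels do not say whether they are such means. Each was used as 1 animal and weighted like the others in the main fit. The number of columns matched to no sample was 0.

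Signals were processed with neqc (normexp on negative-control levels inferred from detection p-values, offset of 16, quantile normalization, log2) in limma 3.58.1 under R 4.3.3. Of 25697 probes, 12339 reached a detection p-value under 0.01 in 8 or more animals and were used. The probe with the highest mean stood for a named gene and each unnamed probe for itself, 8444 and 1011 features. Symbols came from the platform annotation, and all 64 members matched the RefSeq gene table of GRCm38.p6. One limma model (lmFit and eBayes) over all 4 groups held the labelled batch and the share of letter b, with Benjamini-Hochberg adjustment over all features. Differences are model values and means are unadjusted. The number of arrays and signal over background limit the precision, and the offset understates folds of dim probes. The fit was tested on simulated data.

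Genes named were drawn, in each comparison, from the 3 higher and 3 lower members with the smallest p. Further sources were members called anywhere, X-linked members, a list of channel genes known from the striatum, and genes whose probes disagree in sign. Not every gene of these sources is printed, and some, such as Cacna1g, are named for an unadjusted p under 0.05. Other members are named for their residual SD or correlation, after their values were seen. Members and lists were chosen with earlier results of these data known. Alternatives were another normalization, the authors' values, other filters and probe rules, fits without the run term or batch, with array weights or a replicate block, subsets of animals, and each animal left out.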

Additional observations from a re-analysis of the deposited data

Results flagged for a closer look

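Single animals stood apart from their group in 7 of 69 pairs of named gene and group, or 10.1%, by Dixon's test of the gap to the nearest animal. Each of 23 genes was tested in 3 groups, XXY males, XX males and XX females, so XY males were not tested. Chance flags about 1 in 20 groups, but pairs that share an animal are not independent. In XX female 2, the highest of the group, Kcnk4 was 7.102 (next 5.818) and Scn1a 10.03 (next 9.351). XXY male 5 was lowest in its group for Kcnk1, at 10.26 (next 10.96), and for Hcn2, at 9.081 (next 10.32). XX female 7 was lowest for Hcn2, at 9.811 (next 11.02). XX male 4 was lowest for Kcne2, at 4.829 (next 7.01), and XX male 1 for Kcnh2, at 7.276 (next 8.131). XXY male 5 and XX female 7 are the animals that stand apart on the first within-group component.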

How the results depend on the processing

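Under the 53 other settings the count of called channel genes stayed at 0 in XXY minus XY males and in XXY males minus XX females wherever it could be fitted. It became 1 in XX females minus XY males without the run term (beside 2.19% of all features), 16 in XX minus XY males (26.2%) and 3 in XXY minus XX males (1.61%) with array weights, and, in XX males minus XX females, 9 with the run term dropped (26.9%) and 13 with array weights (20.8%). The run term's 5 calls became 0 with the authors' values, 0 in each labelled batch alone, 3 with detection in every animal (13.5% of all features), 3 with the mean of a gene's probes (12.2%), 14 without the batch (32.8%) and 19 with array weights (35.7%), and 3 to 8 with 1 animal left out. XX males and XX females alone could not be fitted, as letter and group cannot be told apart there. Groups shared replicate numbers, and same-numbered animals did not deviate together (median r -0.0151 over 48 pairs, 20 of them over 0.1). With the number as a replicate block the run term had 1 call (2.36% of all features), every genotype comparison 0, and Kcnip1 turned to 0.21 in XX males minus XX females.

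Of the values of named genes 26 turned direction, and the cause was not tested. In batch 1 no male had letter b alone, so differences from XX females there depend on a run term extended beyond the males' letters. In XXY minus XY males, letter b animals alone, with 1 XXY male, gave Kcnk2 -0.40, Kcnj4 -0.58, Kcnk4 0.82 and Kcnj3 0.29. Batch 2 alone gave Kcnj4 -0.034, and leaving out animals with both letters gave Kcnk4 0.046 and Kcnj3 0.025. Batch 1 alone gave Kcnj8 -0.27 and Kcnh2 0.28 in XX females minus XY males, Kcnh2 -0.12 and Kcnj8 0.25 in XXY males minus XX females, Kcnh2 -0.052, Kcnj8 0.085 and Cacnb2 0.015 in XX males minus XX females, and Kcnj8 0.12 in the run term. Batch 2 alone gave Cacnb2 0.15 in XX males minus XX females and Kcnj3 0.35 in the run term, where the authors' values gave Kcnj3 0.39. Without the run term Cacnb2 was -0.061 in XX females minus XY males, 0.061 in XXY males minus XX females and 0.64 in XX males minus XX females, and Scn1a was -0.32 and -0.57 in the last 2. Cacnb1, whose probes disagree, was -0.015 with only the groups compared and -0.23 in letter a animals in XXY minus XX males. Signal over background limits the dim genes, of which 6 were detected in fewer than 50% of the animals.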
